A study of Mus musculus with 9 samples.

Results

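Elastic fibre and microfibril genes are described here as 10 genes chosen by symbol, Eln, Fbn1, Fbn2, Mfap2, Mfap4, Mfap5, Fbln1, Fbln2, Fbln5 and Efemp1, of the 27179 genes in the deposited expression matrix. Every gene of the 10 was matched to an Entrez identifier and passed the filter on low values. They were measured by RNA sequencing in stromal cells of the leptin receptor (LEPR) lineage, sorted from the fibrous tissue that forms around an implant in the mouse tibia, 2 weeks after surgery. The Grem1 conditional knockout (cKO) group holds 5 libraries from Lepr-CreERT;Tdtomato;Grem1fl/fl mice and the control group 4 libraries from Lepr-CreERT;Tdtomato littermates. Both groups therefore carry the Cre recombinase driven by Lepr and switched on by tamoxifen, and the red reporter tdTomato, and both had the implant and the drug. The sorted cells were lineage-negative (Lin-) and reporter-positive, and deletion is limited to cells in which Lepr drove the Cre. Grem1 encodes gremlin 1, a secreted antagonist of bone morphogenetic proteins. Sex and age are not stated in the sources used here, nor whether each library is a separate animal, and p-values therefore cover the variation among these libraries, which may be technical.

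Elastic fibres give skin, vessels and ligaments their recoil. Their core is cross-linked elastin, laid down on a scaffold of microfibrils made of fibrillins, with small microfibril-associated proteins along them and fibulins at the surface of the core. Fibroblasts make most of these proteins, and microfibrils also hold latent transforming growth factor beta and bone morphogenetic proteins in the matrix. In bulk libraries a higher or lower level can come from more or fewer cells of a type. It can also come from more or less RNA per cell, and these cannot be told apart.

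Efemp1, Mfap5 and Fbln1 were higher in cKO cells, and none of the 10 genes passed the test as lower. The genes called were 3 of 10, where 7.48% of all 15832 genes tested were called in either direction and 4.61% as higher (limma, Benjamini-Hochberg adjusted p under 0.05). On recovered reads edgeR called 2 of the 10, where it called 4.96% of genes tested, and DESeq2 called 3 of the 10, where it called 16.5%. In 2 of the 10 genes the groups did not overlap, which held for 11.4% of genes tested. Both were higher in cKO libraries (6.82% of genes tested), and in none were all cKO libraries lower (4.6%). The 10 genes had a median log2 fold change of 0.32, and all genes tested a median of -0.0039. Elastin itself and the main fibrillin, Fbn1, were not called. All log2 fold changes below are cKO minus control on the log2(normalized count + 1) scale with their standard error (SE), and a normalized count is a read count divided by the library's size factor. Reads of a single gene among the 10 in a library ran between 619 reads (Efemp1 in control replicate 2, exact Poisson 95% interval 571 to 670, which covers counting error only) and 186483.

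**Figure D1:**
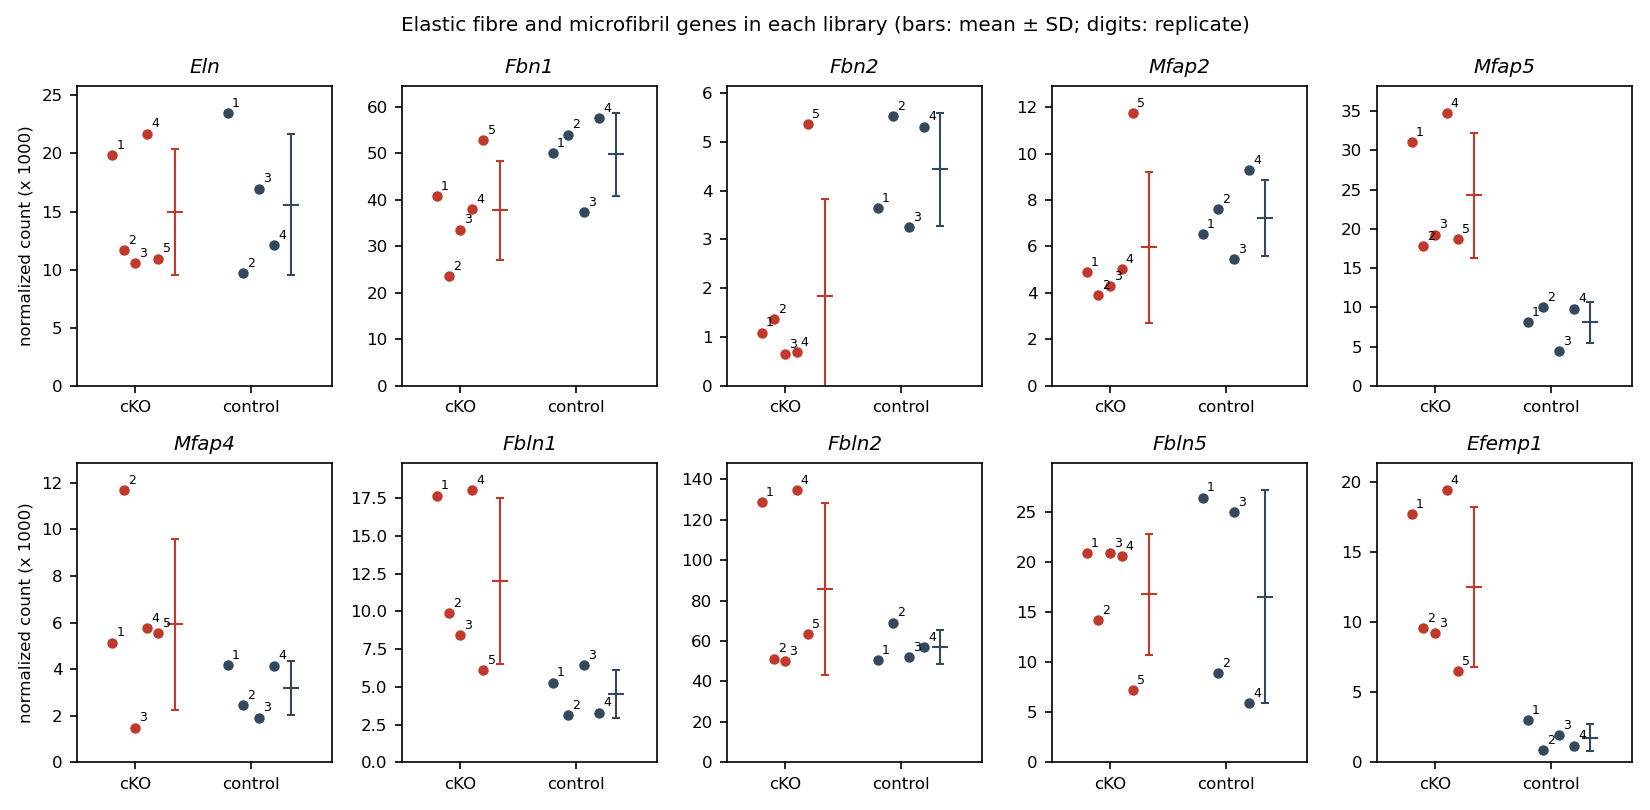
Normalized counts (scaled down on linear axes from 0) of the 10 genes in each library, cKO in red left of control in blue, with the replicate number beside each point and the mean ± SD as a bar (the Fbn2 bar of cKO runs below 0 and is cut there). All 5 cKO libraries lie above all 4 controls for Mfap5 and Efemp1, while cKO replicate 5 lies apart from the other cKO libraries for Fbn2 and Mfap2.

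Promoter windows of a pair of called genes, Efemp1 and Fbln1, and of Fbn1, which was not called, are shown because the first pair was high together in the cKO libraries. The window is the 250 bases before the annotated start, from RefSeq on GRCm38.p6, a build older than the mm39 named in the submitters' processing notes. Windows were found for 6 of the 10 genes, and Mfap5 was not among them. Capitals mark matches on either strand to GGCGCC, a palindrome known as a target of SMAD proteins downstream of bone morphogenetic proteins, to CAGAC, a general SMAD box, or to TGANTCA, the site of AP-1 factors. Among 32851 mouse promoter windows of the same length, GGCGCC occurred in 9.59%, CAGAC in 42.2% and TGANTCA in 6.75%.
Efemp1, chr11:28852955-28853204, plus strand: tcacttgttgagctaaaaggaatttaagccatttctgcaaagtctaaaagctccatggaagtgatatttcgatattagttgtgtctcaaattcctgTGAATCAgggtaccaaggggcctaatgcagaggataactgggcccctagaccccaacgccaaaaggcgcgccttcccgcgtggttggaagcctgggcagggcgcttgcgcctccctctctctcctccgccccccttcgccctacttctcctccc
Fbln1, chr15:85205699-85205948, plus strand: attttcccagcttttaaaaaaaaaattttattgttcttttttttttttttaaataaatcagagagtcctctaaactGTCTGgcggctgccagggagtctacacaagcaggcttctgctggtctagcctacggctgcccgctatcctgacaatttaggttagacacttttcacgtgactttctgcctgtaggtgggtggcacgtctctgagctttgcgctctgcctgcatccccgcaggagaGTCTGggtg
Fbn1, chr2:125506439-125506688, minus strand: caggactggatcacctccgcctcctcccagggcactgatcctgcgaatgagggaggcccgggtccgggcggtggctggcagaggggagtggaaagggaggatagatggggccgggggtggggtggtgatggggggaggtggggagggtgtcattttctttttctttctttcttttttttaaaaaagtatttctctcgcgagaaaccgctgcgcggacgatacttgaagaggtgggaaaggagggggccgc
The Efemp1 window held 1 match to TGANTCA, as TGAATCA, and the Fbln1 window 2 matches to CAGAC, read on the other strand. The Fbn1 window held none of these letters. Of the windows not printed, both of Fbln5 held GGCGCC, and 1 of Fbln5, 1 of Mfap2 and the other of Fbln1 held CAGAC, so the letters also occurred at genes that were not called. A match describes these bases and is not a measured binding site.

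Depth, the knockout and the sort were checked across the libraries. The cKO libraries held 76.3, 87.2, 83.8, 80.2 and 43.5 megareads recovered from the matrix in replicates 1 to 5, and the controls 44.8 to 53.4 megareads, so no control was as deep as cKO replicates 1 to 4. Grem1 stood at 46.4 to 133 normalized counts in the cKO libraries and at 356 to 736 in the controls, lower in every cKO library than in any control. Of 11 stromal marker genes, Pdgfra alone was called, as higher, and the most abundant, Col1a1, stood at 1238854 to 4522428 in cKO libraries and 1953074 to 2602744 in controls. Lepr was not called and varied over 1347 to 15785 in cKO libraries and 935 to 40594 in controls. Markers of other cells moved with genotype or with single libraries, as summed normalized counts show. All 12 skeletal muscle markers were called higher, with sums of 79300 to 709344 in cKO libraries and 381 to 1992 in controls, and 5 of 7 Schwann cell markers were called higher (18699 to 46870 in cKO libraries, 3790 to 9538 in controls). Of 11 chondrocyte markers 7 were called lower, with sums of 29750 to 159232 in cKO replicates 1 to 4, 1038874 in cKO replicate 5 and 1578682 to 4204108 in controls. Of 10 endothelial markers 2 were called lower, with sums of 5045 to 9235 in cKO libraries. In the controls the endothelial sum was 147529 for replicate 1, 6103 for replicate 2, 182121 for replicate 3 and 8858 for replicate 4. Of 12 macrophage markers 1 was called lower, and the sum was 115051 in cKO replicate 2, 5359 to 17337 in the other cKO libraries and 28616 to 64521 in controls. Of 12 smooth muscle and pericyte markers 3 were called lower and 1, Des, higher, and the sums overlapped (100284 to 126778 in cKO libraries, 114114 to 168417 in controls). Des was highest in cKO replicates 1 and 4 (34977 and 47141), which also held the largest skeletal muscle sums.

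Elastin, the tropoelastin gene Eln (Entrez 13717), showed no difference that stood out from the spread. Its normalized counts were 19882, 11675, 10569, 21701 and 10945 in cKO replicates 1 to 5, against 23452, 9721, 16980 and 12108 in control replicates 1 to 4. Every cKO library lay inside the range of the controls. The means were 14954 ± 5382 in cKO libraries (SD, n = 5) and 15565 ± 6064 in controls (SD, n = 4), with a log2 fold change of -0.049 (SE 0.31, limma adjusted p = 0.935). The high values belonged to cKO replicates 1 and 4 and to control replicates 1 and 3. Without control replicates 1 and 3, the libraries with high endothelial sums, the log2 fold change of Eln was 0.39 (limma adjusted p = 0.521). The part of endothelial cells in these levels was not tested.

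Of the fibrillins, the large glycoproteins that form the backbone of microfibrils, neither gene passed the test over all libraries. Fbn1 (Entrez 14118), the fibrillin of adult tissue and the gene mutated in Marfan syndrome, had 40810, 23611, 33626, 38029 and 52834 normalized counts in cKO replicates 1 to 5, against 50109, 54042, 37326 and 57643 in controls. The groups overlapped through cKO replicates 1, 4 and 5 and the low control replicate 3. Its log2 fold change was -0.43 (SE 0.23, limma adjusted p = 0.260). Fbn2 (Entrez 14119), the fibrillin best known from development, had 1090, 1362, 653, 692 and 5369 in cKO replicates 1 to 5, against 3640, 5529, 3260 and 5310 in controls. Replicates 1 to 4 of the cKO group lay below every control and replicate 5 among the highest controls. The log2 fold change over all libraries was -1.74 (SE 0.55, limma adjusted p = 0.0775, exact two-sided permutation p = 0.0635). Without cKO replicate 5 it was -2.25 (limma adjusted p = 0.00106, where 22.5% of genes tested were called), and between cKO replicate 5 alone and the controls 0.31, where 0.524% of genes tested were called. The chondrocyte marker sum was also higher in cKO replicate 5 than in the other cKO libraries, though below every control, and its part in the Fbn2 level was not tested.

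Of the 3 microfibril-associated glycoprotein genes, Mfap5 alone was called. Mfap5 (Entrez 50530), which encodes MAGP-2, a small protein that binds fibrillins and is made by adventitial fibroblasts, had 31050, 17784, 19262, 34724 and 18719 normalized counts in cKO replicates 1 to 5, against 8077, 10036, 4399 and 9854 in controls. The groups did not overlap, and the lowest cKO library stood above the highest control. Mfap5 rose 3.03-fold (24308 ± 7956, SD, n = 5 in cKO libraries and 8091 ± 2615, SD, n = 4 in controls, log2 fold change 1.60, SE 0.29, limma adjusted p = 0.0147). Its exact two-sided permutation p was 0.0159, the smallest that these group sizes allow. The call held when any 1 library was left out, with a log2 fold change of 1.33 to 1.73. It was lost without control replicates 1 and 3 together (1.23, limma adjusted p = 0.0790) and without cKO replicates 1 and 4 together (1.27, limma adjusted p = 0.102). Between cKO replicate 5 alone and the controls the log2 fold change was 1.28.

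Mfap2 (Entrez 17150), which encodes the related MAGP-1, had 4898, 3906, 4295, 5010 and 11732 normalized counts in cKO replicates 1 to 5, against 6531, 7605, 5468 and 9276 in controls. In this gene cKO replicates 1 to 4 lay below all controls and replicate 5 above all of them. The log2 fold change was -0.38 (SE 0.30, limma adjusted p = 0.455). Without cKO replicate 5 it was -0.65 (limma adjusted p = 0.0244), where 22.5% of genes tested were called. Mfap4 (Entrez 76293), a fibrinogen-related protein that binds elastin and fibrillin, had 5138, 11695, 1494, 5754 and 5551 in cKO replicates 1 to 5, against 4157, 2461, 1919 and 4157 in controls. Its highest and its lowest library were both cKO libraries, and it was not called (log2 fold change 0.71, SE 0.50, limma adjusted p = 0.398).

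Among the fibulins, glycoproteins that bridge elastin, microfibrils and cell surfaces, Efemp1 and Fbln1 rose. Efemp1 (Entrez 216616) encodes fibulin-3, an extracellular matrix protein of fascia and loose connective tissue. Its normalized counts were 17726, 9587, 9210, 19455 and 6512 in cKO replicates 1 to 5, against 3040, 854, 1949 and 1193 in controls. Even the lowest cKO library, replicate 5, stood above the highest control. Efemp1 rose 7.31-fold (12498 ± 5719, SD, n = 5 in cKO libraries and 1759 ± 969, SD, n = 4 in controls, log2 fold change 2.87, SE 0.42, limma adjusted p = 0.00542, exact two-sided permutation p = 0.0159). With any 1 library left out the log2 fold change was 2.58 to 3.19 and the call held, while without cKO replicates 1 and 4 together it was 2.41 (limma adjusted p = 0.0542).

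Fbln1 (Entrez 14114) encodes fibulin-1, a protein of basement membranes and elastic fibres. It had 17654, 9873, 8444, 18046 and 6109 normalized counts in cKO replicates 1 to 5, against 5275, 3118, 6439 and 3296 in controls. Replicate 5 of the cKO group lay between control replicates 1 and 3, so the groups overlapped, and the other 4 cKO libraries stood above all controls. Fbln1 rose 2.55-fold (12025 ± 5486, SD, n = 5 in cKO libraries and 4532 ± 1604, SD, n = 4 in controls, log2 fold change 1.35, SE 0.35, limma adjusted p = 0.0475). The call was close to the threshold. It was lost when any 1 library other than cKO replicate 5 was left out (limma adjusted p of 0.0571 to 0.116), with no filter on low values (limma adjusted p = 0.0580) and with edgeR on recovered reads (0.0584).

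Fbln2 (Entrez 14115), fibulin-2, had the highest mean count of the 10 genes in both groups and was not called. Its normalized counts were 128545, 51261, 50203, 134742 and 63411 in cKO replicates 1 to 5, against 50604, 69065, 52149 and 56915 in controls. Only cKO replicates 1 and 4 stood above the controls (log2 fold change 0.45, SE 0.33, limma adjusted p = 0.409). Without this pair the value was -0.055. Fbln5 (Entrez 23876), fibulin-5, which brings elastin to microfibrils and is needed for elastic fibres in the mouse, had 20943, 14226, 20873, 20594 and 7241 in cKO replicates 1 to 5, against 26444, 8906, 25022 and 5901 in controls. All cKO libraries lay inside the control range, and the controls formed a high and a low pair (log2 fold change 0.19, SE 0.49, limma adjusted p = 0.831). The high pair, control replicates 1 and 3, was again the pair with high endothelial sums, and without it the log2 fold change was 1.11 (limma adjusted p = 0.203).

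**Figure D2:**
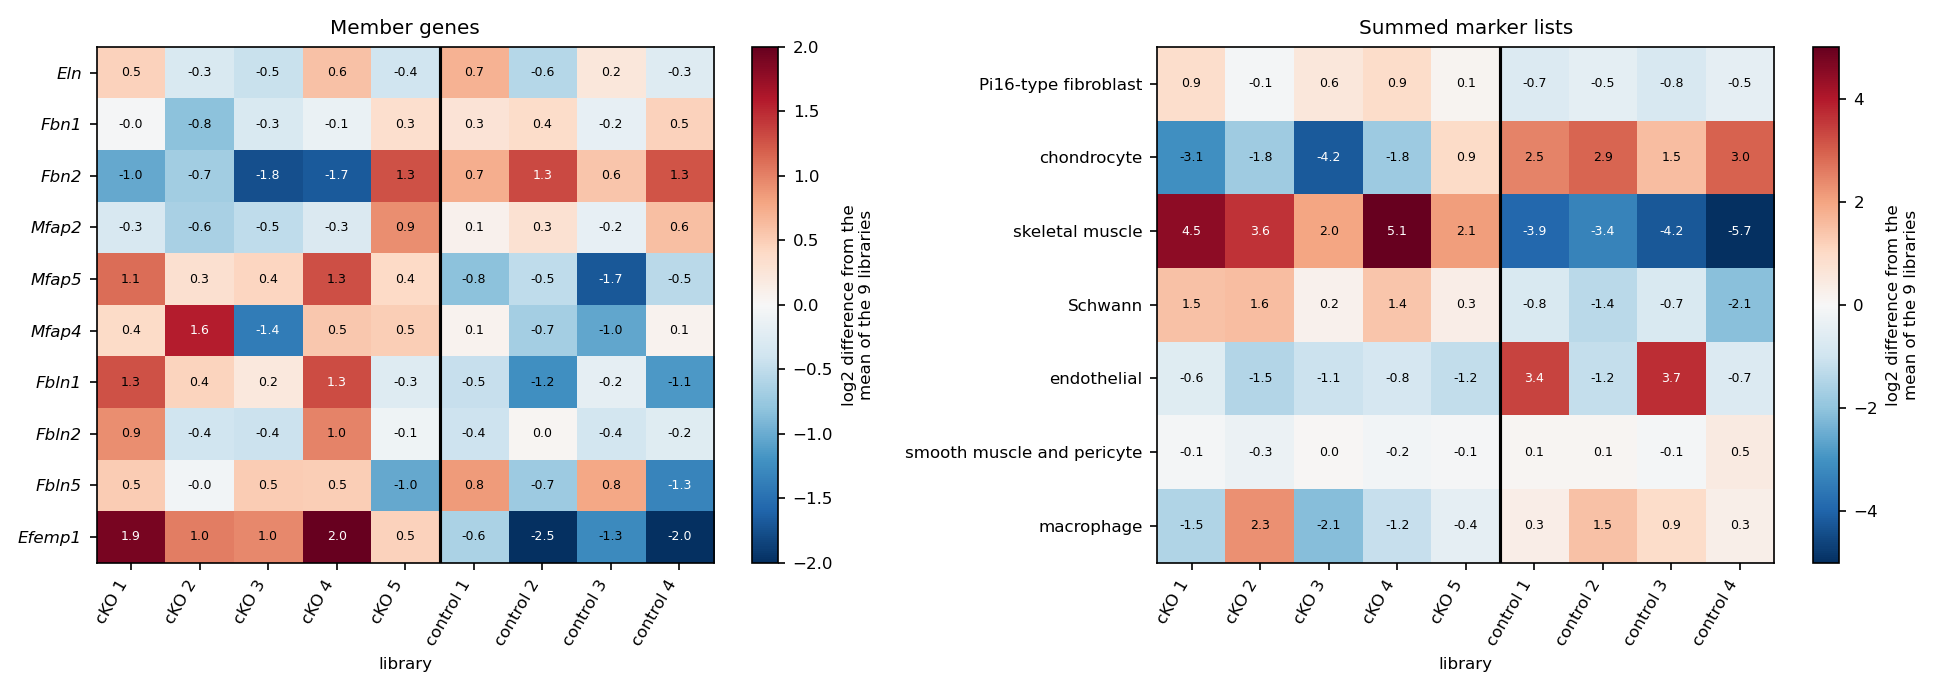
Left, log2(normalized count + 1) of each gene in each library minus the gene's mean over the 9 libraries. Right, the same for the summed normalized counts of marker lists. cKO libraries stand left of the black line and controls right of it. Efemp1 and Mfap5 are above their mean in all 5 cKO libraries, cKO replicates 1 and 4 share high Eln, Fbln1, Fbln2, Mfap5 and Efemp1, and cKO replicate 5 is on the side of the controls for Fbn2 and above them for Mfap2.

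Part of the 10 genes shared an order of the cKO libraries. Replicates 1 and 4 held the highest cKO values of Eln, Mfap5, Fbln1, Fbln2 and Efemp1. For Fbn1, Fbn2 and Mfap2 the highest cKO library was replicate 5, and for Mfap4 replicate 2. Together the 10 genes made up 0.513% and 0.515% of normalized counts in cKO replicates 1 and 4. The share was 0.264%, 0.279% and 0.327% in cKO replicates 2, 3 and 5 and 0.262% to 0.300% in controls. Fbln2 alone gave 128545 of the 287737 normalized counts of the 10 genes in replicate 1 and 134742 of 298746 in replicate 4. These libraries were close to each other over all genes tested, with a median absolute difference of 0.278 log2 units, where pairs of libraries ranged from 0.277 (control replicates 2 and 4) to 0.648. They also had the largest skeletal muscle sums (451327 and 709344) and Pi16-type fibroblast sums (147941 and 149073, against 74586 to 117891 in the other cKO libraries and 45538 to 57577 in controls). Without them none of the 10 genes passed (limma, 3 at an unadjusted p under 0.05). In that setting 99 of all 15832 genes tested passed, and 2526 had an unadjusted p under 0.05 (limma). The setting was chosen after seeing the data and leaves 3 cKO libraries. The part of either cell type in the levels of the 10 genes was not tested. By the same median absolute difference, cKO replicate 5 stood 0.353 to 0.461 log2 units from the controls. From the other cKO libraries it stood 0.568 to 0.626 log2 units, so it was nearer to every control than to any of them.

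Pi16-type fibroblasts are a population of fascia and adventitia found in many tissues. Of 10 genes that mark them and are not among those described here, 6 were called higher and none lower, where 4.61% of all genes tested were called higher, with a median log2 fold change of 1.14. Dpp4 rose 12.5-fold, Clec3b 8.50-fold, Efhd1 7.58-fold and Pi16 7.40-fold (limma adjusted p = 0.00237, 0.00272, 0.0104 and 0.00142). For these 4 genes every cKO library lay above every control, replicate 5 included, as held for 6.82% of all genes tested. Ackr3 also separated, while Sema3c, Cd55, Cd248, Anxa3 and Limch1 overlapped between the groups. Of these, Sema3c (log2 fold change 0.31), Cd248 (0.86), Anxa3 (0.56) and Limch1 (0.084) were not called.

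Levels of the 10 genes were compared after division by merged exon length, as normalized counts per kilobase. In cKO libraries the order was Fbln2 (17892 ± 8855), Mfap5 (16141 ± 5283), Efemp1 (6136 ± 2808), Mfap2 (5244 ± 2859), Eln (3881 ± 1397), Mfap4 (3303 ± 2043), Fbn1 (3147 ± 887), Fbln1 (2933 ± 1338), Fbln5 (2766 ± 997) and Fbn2 (166 ± 181, SD, n = 5 throughout). In controls it was Fbln2 (11948 ± 1748), Mfap2 (6344 ± 1427), Mfap5 (5373 ± 1737), Fbn1 (4147 ± 738), Eln (4040 ± 1574), Fbln5 (2732 ± 1759), Mfap4 (1769 ± 645), Fbln1 (1105 ± 391), Efemp1 (864 ± 476) and Fbn2 (402 ± 104, SD, n = 4 throughout). Efemp1 thus stood at rank 3 in cKO libraries and at rank 9 in controls. Neighbours in these orders overlapped in their ranges except Mfap5 above Efemp1 and Fbln5 above Fbn2 in cKO libraries, and Fbln2 above Mfap2 in controls. As a share of the summed count per kilobase of the 10 genes, Mfap5 held 23.6% to 29.4% in cKO libraries and 8.55% to 16.9% in controls, and Efemp1 held 6.07% to 11.2% in cKO libraries and 1.07% to 3.58% in controls. Fbn1 held 3.73% to 8.35% in cKO libraries and 9.10% to 12.1% in controls, so the shares of these 3 genes did not overlap between the groups. A share also falls when other genes of the 10 rise, so these shares are not independent. The normalized counts of Fbn1 itself overlapped (23611 to 52834 in cKO libraries and 37326 to 57643 in controls).

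Ratios of related genes within a library do not depend on the scaling between libraries. The ratio of Mfap5 to Mfap2 was 6.34, 4.55, 4.49, 6.93 and 1.60 in cKO replicates 1 to 5, against 1.24, 1.32, 0.804 and 1.06 in controls. The groups did not overlap, and cKO replicate 5 was nearest to the controls. The ratio of Efemp1 to Efemp2, the gene of fibulin-4, was 2.60, 1.07, 1.12, 2.76 and 0.491 in cKO replicates 1 to 5, against 0.276, 0.0451, 0.209 and 0.0754 in controls, again without overlap. Fibulin-4 is needed for elastin cross-linking in the mouse, and Efemp2 itself was not called (8863 ± 2618, SD, n = 5 in cKO libraries and 13774 ± 4406, SD, n = 4 in controls, limma adjusted p = 0.141). The ratio of Fbn1 to Fbn2 was 17.3 to 54.9 in cKO replicates 1 to 4, 9.84 in cKO replicate 5 and 9.77 to 13.8 in controls. The ratio of Fbln1 to Fbln2 overlapped between the groups (0.0963 to 0.193 in cKO libraries and 0.0451 to 0.123 in controls).

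**Figure D3:**
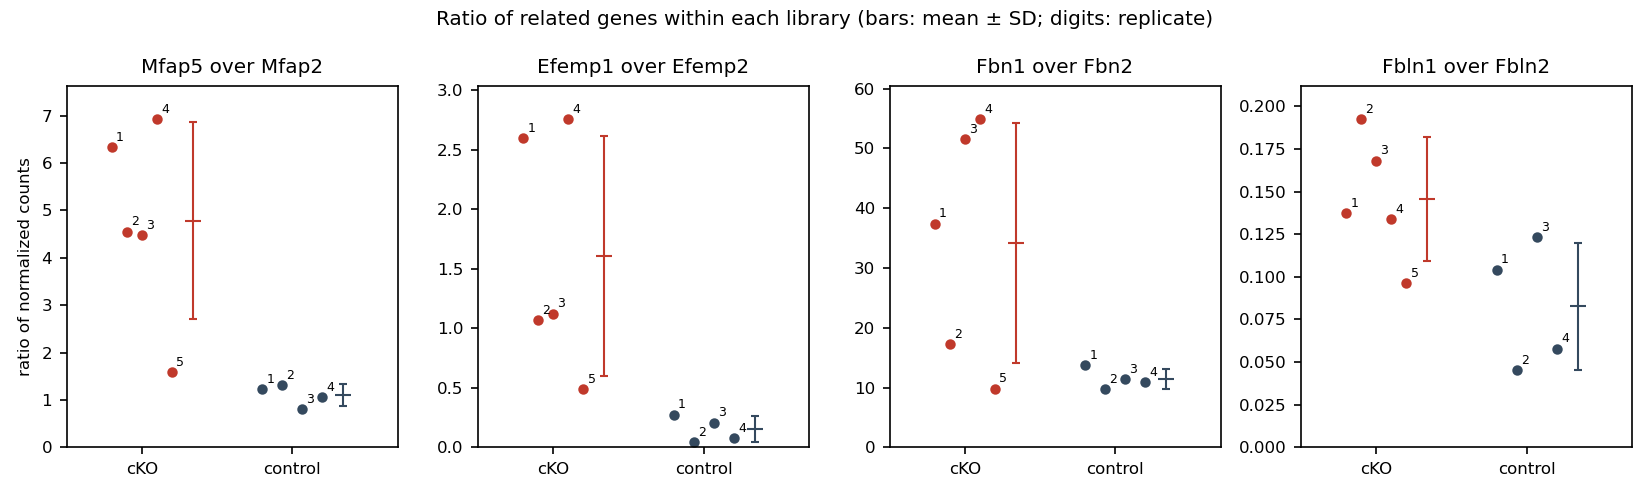
Ratio of normalized counts of related genes within each library (linear axes from 0), cKO in red left of control in blue, with the replicate number beside each point and the mean ± SD as a bar. Mfap5 over Mfap2 and Efemp1 over Efemp2 separate the groups, and Fbn1 over Fbn2 separates all cKO libraries but replicate 5.

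Emilin1, Loxl3 and Itga5 were the genes called among those that work with elastic fibres, each as lower. The 19 partners in assembly were lysyl oxidases, latent transforming growth factor binding proteins, emilins, ADAMTS and ADAMTS-like proteins and fibulins 4 and 7. Of these 19 none was called higher and 2 were called lower, where 4.61% of all genes tested were called higher and 2.87% lower. Their median log2 fold change was -0.39. Emilin1, an elastin-interface protein that binds elastin and fibulin-5, had 10774, 14595, 13237, 9457 and 31386 normalized counts in cKO replicates 1 to 5, against 31449, 59591, 31867 and 48900 in controls. It fell 2.87-fold (log2 fold change -1.52, SE 0.34, limma adjusted p = 0.0293), with cKO replicate 5 at the edge of the controls. Loxl3, a lysyl oxidase-like enzyme, had 6852, 5462, 5326, 6491 and 23549 in cKO replicates 1 to 5, against 20795, 43344, 19096 and 32688 in controls, and fell 3.47-fold (log2 fold change -1.80, SE 0.44, limma adjusted p = 0.0388). Here cKO replicate 5 lay inside the control range.

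The cross-linking enzyme gene Lox and the matrix protein gene Ltbp4, known in the mouse to be needed with fibulin-5 for elastin assembly, were outside the rule for named genes and were added after their values were seen. Lox had 34959 ± 11751 in cKO libraries (SD, n = 5) and 51859 ± 24482 in controls (SD, n = 4), and was not called (limma adjusted p = 0.355). Ltbp4 stood at 145899, 89270, 146644, 124564 and 35383 in cKO replicates 1 to 5, against 60055, 26815, 69100 and 29828 in controls. Its cKO replicates 1 to 4 lay above all controls and replicate 5 among them, and it was not called (log2 fold change 1.18, SE 0.46, limma adjusted p = 0.131).

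Of 9 proteases able to degrade elastin or to act on its fibres, 7 were tested and none was called by limma, with a median log2 fold change of -0.43. The smallest p-values belonged to Mmp14, a membrane metalloproteinase (32293 ± 23867, SD, n = 5 in cKO libraries and 69326 ± 13210, SD, n = 4 in controls, limma adjusted p = 0.0630), and to Ctsl, cathepsin L (35051 ± 9549, SD, n = 5 in cKO libraries and 21717 ± 2206, SD, n = 4 in controls, limma adjusted p = 0.0786). Of 7 integrin subunits whose dimers bind fibrillins or fibulins, 6 were tested, 1 was called lower and none higher, against the same 2.87% and 4.61% over all genes tested. Itga5, which pairs with the beta 1 subunit as the fibronectin receptor, had 11925, 6102, 8571, 10258 and 27378 normalized counts in cKO replicates 1 to 5, against 29255, 37111, 28853 and 27571 in controls. It fell 2.73-fold (log2 fold change -1.45, SE 0.36, limma adjusted p = 0.0408). Again cKO replicate 5 lay just under the lowest control. The 3 calls in these lists were each lost when any 1 library other than cKO replicate 5 was left out, and with edgeR on recovered reads, which called none of the partner, protease and integrin genes (12 at an unadjusted p under 0.05). For these 3 called genes, as for the chondrocyte marker sum, the highest cKO library was replicate 5. None of them shared the order of that sum over cKO replicates 1 to 4, and the part of chondrocytes in their values was not tested.

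**Figure D4:**
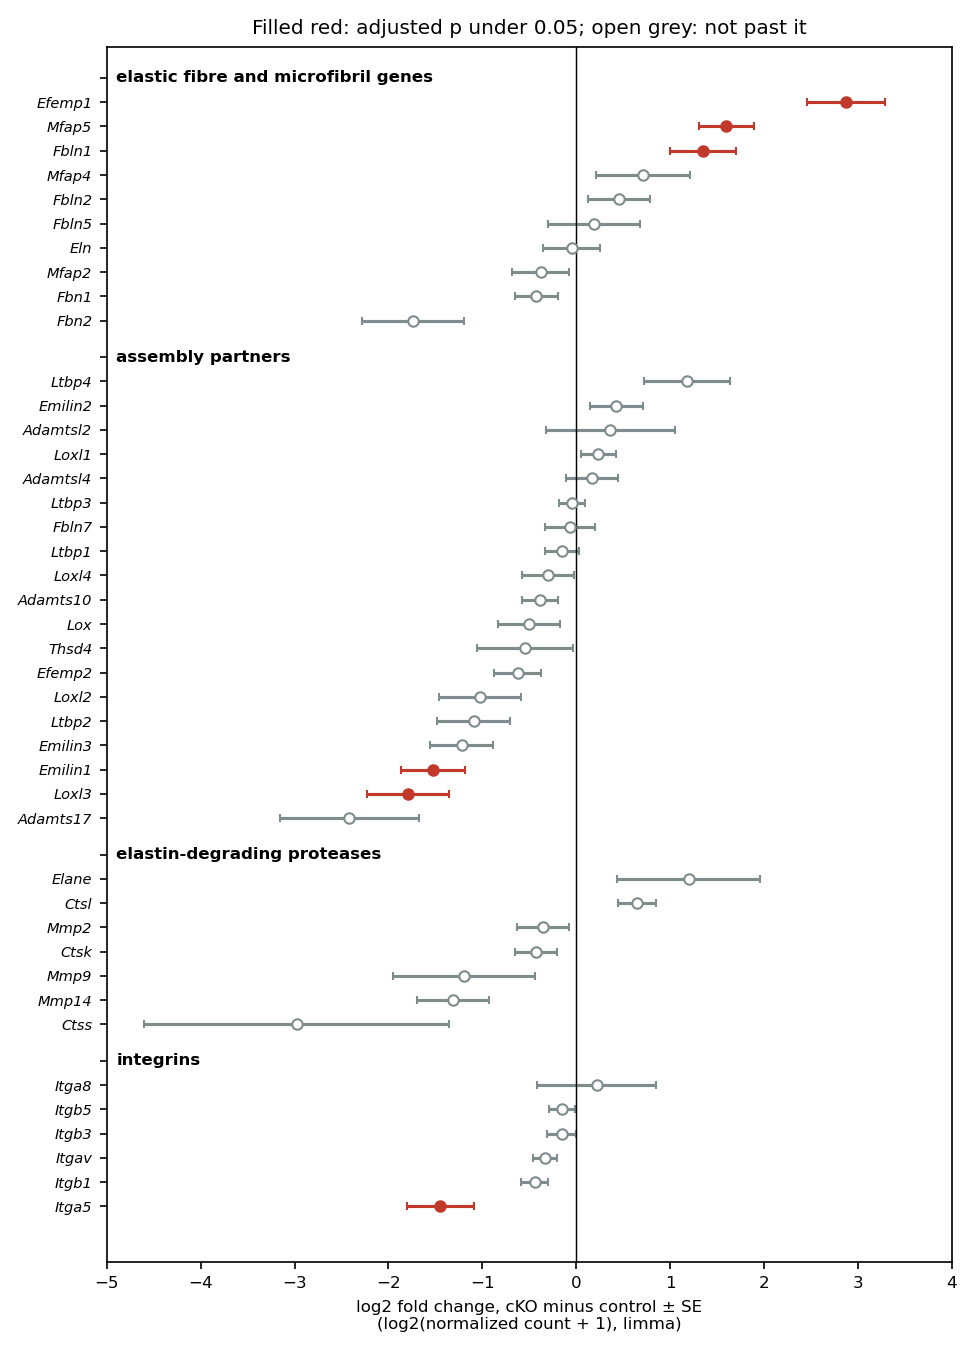
Log2 fold changes, cKO minus control, with their SE for the 10 genes and the tested genes of the partner, protease and integrin lists. Filled red points passed the test across all genes (limma adjusted p under 0.05) and open grey points did not. The 3 called elastic fibre genes lie right of 0 and the 3 called partner and integrin genes left of it.

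Genes with the most similar profiles were found by the mean absolute difference of centred log2 values over the 9 libraries. For Mfap5 these were Ndn (0.170 log2 units) and F3 (0.204), for Efemp1 Spock2 (0.257) and Efhd1 (0.271), and for Fbln1 Pdk2 (0.197) and Homer2 (0.199). Eln was most like Stx3 (0.133) and Mb21d2 (0.155), Fbn1 most like Pkd1 (0.116) and Hcfc1 (0.119), and Fbn2 most like Emb (0.178) and Ccnb1-ps (0.219). Mfap2 was nearest to Ppox (0.123) and Xpot (0.127), and Mfap4 nearest to Cmpk2 (0.317) and Mthfd2l (0.373). Fbln2 was nearest to Dnaja4 (0.144) and Adm (0.181), and Fbln5 nearest to Epb41l4b (0.141) and Afdn (0.163). Within the 10 genes the nearest to Fbn1 was Mfap2 (0.199), the nearest to Eln was Fbln2 (0.403), the nearest to Fbln5 was Eln (0.431) and the nearest to Mfap5 was Fbln1 (0.486).

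In the authors' deposited table Mfap5, Fbln1 and Efemp1 were the genes called among the 10 at an adjusted p under 0.05, where 17.1% of genes with an adjusted p in that table were called. The log2 fold changes in the authors' deposited table were 1.59 for Mfap5 (SE 0.31, adjusted p = 1.34e-05), 1.41 for Fbln1 (SE 0.37, adjusted p = 0.00251) and 2.83 for Efemp1 (SE 0.43, adjusted p = 5.6e-09).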

How the data were processed

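Libraries from poly(A) RNA of the sorted cells were sequenced as paired-end reads of 150 bases, per the labels' protocols. For 27179 Entrez IDs in 9 libraries the deposited matrix gives normalized counts, a signal whose step in each library is the worth of 1 read. The authors' own comparison is a table with, per the file headers, mean normalized count (signal), log2 fold change, a test statistic (score) and p-values. The submitters' processing notes name STAR, featureCounts, DESeq2 and build mm39. Annotation, strand setting and filters: not given in the sources used here. Groups and replicates were read from the titles.

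Divided by the smallest step of their library, all values but 3 (of 1 gene) came within 0.01 of a whole read, and these reads were used for depth and for edgeR and DESeq2. Symbols came from an NCBI gene table of GRCm38.p6, in which 25275 IDs matched. It gave names only. Exon lengths came from GENCODE on GRCm38 (merged exons of protein-coding transcripts), which may differ from the authors' annotation. Genotype was tested two-sided by limma (version 3.58.1, R version 4.3.3, moderated with a mean-variance trend) on log2(normalized count + 1), over 15832 genes with at least 10 normalized counts in at least 4 libraries, calling genes at a Benjamini-Hochberg adjusted p under 0.05. Fold changes compare geometric means of values plus 1. Exact permutation tests used all 126 splits. Alternatives were scaling by TMM or the upper quartile, a pseudocount of 0.5 or 5, a filter of 50 or none, edgeR 4.0.16 and DESeq2 1.42.0 on whole reads, library quality weights, a replicate block, leaving out libraries singly and in pairs, and libraries under 60 megareads alone. The 10 genes and all lists were chosen with earlier results of these data known, and leaving out cKO replicates 1 and 4 was added after seeing the data. The rule for named genes took the 10 genes, Grem1 and Lepr, every passing gene of the partner, protease and integrin lists or else the 2 of smallest p, the 2 most similar named genes for each of the 10 with a mean of at least 50, and the most abundant markers. Pi16, Dpp4, Clec3b, Efhd1 and the other Pi16-type markers, Pdgfra, Des, Efemp2, Emilin3, Lox and Ltbp4 were named in addition, after their values were seen.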

Additional observations from a re-analysis of the deposited data

Results flagged for a closer look

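In 48 genes (the 10 genes, Grem1, Lepr, the tested partner, protease and integrin genes, and Pi16, Dpp4, Clec3b and Efhd1) the highest and lowest library of each group was set against its nearest neighbour, as a gap over the whole range of the group. The cut-off on this gap flags about 1 in 20 groups of normally distributed values. The gene groups here share libraries, so that rate does not give the number to be had by chance. In 11 of the 96 gene groups a library stood apart, and 8 of these were cKO replicate 5 as the highest cKO library. Its normalized count was 5369 for Fbn2 (gap 0.850 of the range), 11732 for Mfap2 (0.859), 12682 for Loxl2 (0.827), 23549 for Loxl3 (0.916), 31386 for Emilin1 (0.766), 74561 for Mmp14 (0.839), 27378 for Itga5 (0.726) and 63147 for Itgb1 (0.728). This library was also the cKO library with the fewest reads (43.5 megareads) and the largest chondrocyte marker sum, and the part of either in these values was not tested.

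In cKO replicate 2 the protease gene Ctss, cathepsin S, stood at 2947 normalized counts, against 1.36 to 199 in the other cKO libraries (gap 0.933), and this library had the highest macrophage marker sum, whose part was not tested. Itgb5 was lowest among the cKO libraries in the same replicate, at 19290 (gap 0.733). Itgb3 was highest among the controls in control replicate 2, at 6057 (gap 0.861).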

How the results depend on the processing

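The count of called genes, 1184 over all genes tested, was 786 with edgeR, 2546 with DESeq2, 4056 with library quality weights and 338 without control replicates 1 and 3 together. It was 99 without cKO replicates 1 and 4 together, 83 for libraries under 60 megareads, where cKO replicate 5 is the lone knockout and is assumed to vary like the controls, and 377 to 3562 with each library left out in turn. Of the 10 genes, 3 were called. The count was 1 without control replicates 1 and 3, 0 without cKO replicates 1 and 4, 0 under 60 megareads (limma, 1 at an unadjusted p under 0.05) and 2 to 5 with single libraries left out, 5 being without cKO replicate 5. Of the partner, protease and integrin genes 3 were called. The count was 0 with edgeR (12 at an unadjusted p under 0.05), 9 with DESeq2, 14 with quality weights, 0 without control replicates 1 and 3, 0 without cKO replicates 1 and 4, 0 under 60 megareads and 0 to 14 with single libraries left out. The replicate numbers did not pair the libraries (correlations of same-numbered deviations from -0.0109 to 0.0705, none over 0.1, and not every library closest to its own number). A replicate block, to which cKO replicate 5 adds nothing, called 2715 genes, 5 of the 10 and 10 of the partner, protease and integrin genes. Over 220 values of the 10 genes under 22 alternatives, 180 kept direction and side of the threshold, 18 lost and 5 gained a call, and 17 changed sign, none of them a called gene. The sign changes were Eln with quality weights (0.28), with the block (0.046), without control replicates 1 and 3 (0.39) and with single libraries left out (-0.25 to 0.18), and Fbln5 with edgeR (-0.0014), without cKO replicates 1 and 4 (-0.081), under 60 megareads (-0.92) and with single libraries left out (-0.21 to 0.51). Under 60 megareads Fbn1 (0.10), Fbn2 (0.31) and Mfap2 (0.73) changed sign too, and Fbln2 did so without cKO replicates 1 and 4 (-0.055). Calls over all genes tested rose without cKO replicate 5 (3562) and fell without any other single library and without either pair. The cause of these changes, and of those in sign, was not tested. TMM and upper-quartile scaling moved the median of all genes by 0.0025 and 0.015 log2 units.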

Other observations

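Other genes of the assembly list that are part of or bound to microfibrils are given as values. Ltbp2, whose product binds fibulin-5, had 10877, 3986, 9081, 10794 and 18314 normalized counts in cKO replicates 1 to 5, against 12484, 25357, 24759 and 21534 in controls (limma adjusted p = 0.106). Ltbp1 and Ltbp3, which tether latent transforming growth factor beta, overlapped between the groups (14691 to 26779 in cKO libraries and 18048 to 26574 in controls for Ltbp1, and 20367 to 28739 in cKO libraries and 22535 to 27456 in controls for Ltbp3). Adamts17, a metalloproteinase tied to fibrillin biology, had 58.9, 16.2, 190, 184 and 208 in cKO replicates 1 to 5, against 735, 589, 329 and 456 in controls. Every cKO library was lower than every control, as held for 4.6% of all genes tested, yet the gene was not called (log2 fold change -2.42, limma adjusted p = 0.0723). Emilin3 separated in the same direction, with 327 to 961 in cKO libraries and 1125 to 1673 in controls, and was not called either (limma adjusted p = 0.0551). These genes were named after their values were seen.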
